A study of Homo sapiens with 4 samples.

Results

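Receptor tyrosine kinases (RTKs) were followed across 4 RNA-seq libraries of human melanoma cell lines. The set was AXL, EGFR, ERBB2, ERBB3, KIT, MET, IGF1R, FGFR1, PDGFRB and EPHA2, 10 genes taken by name, of which 9 were among the 17755 genes of the expression table; KIT was not analysed here. SK-MEL-28 and A375 cells were transfected either with a control siRNA (siNC) or with an siRNA against the long non-coding RNA LINC00622 (siLINC00622), kept 6 h without serum and then 24 h in medium with 10% serum. Each line and siRNA gave 1 library, so a line held 1 siNC and 1 siLINC00622 library. The labels name the source as melanoma tissue, while the samples are established cell lines, each a single line without a non-melanoma control.

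An RTK crosses the cell membrane once, binds a ligand outside the cell and, when paired with a second receptor, phosphorylates tyrosines that recruit adaptors to the RAS-MAPK and PI3K pathways. In melanoma these receptors are known as routes by which cells keep those pathways active, and some of them are read as markers of cell state. ERBB3 and KIT are usually high in pigmented, melanocyte-like cells. AXL and EGFR are usually high in poorly pigmented, dedifferentiated cells.

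Library totals were 31269923 to 36384819 counts. LINC00622, the targeted RNA, stood at 309 (siNC) and 135 (siLINC00622) counts in SK-MEL-28, a log2 ratio of -1.21, and at 135 and 86 counts in A375, a ratio of -0.84. The 12 melanocytic markers summed to 2130 and 2428 FPKM (fragments per kilobase of gene length, scaled to library depth) in SK-MEL-28 against 130 and 161 FPKM in A375, and each of the 12 was higher in SK-MEL-28. SOX10, a neural crest and melanocyte transcription factor, stood at 118 to 153 FPKM in all 4 libraries and MITF, the regulator of pigment genes, at 74.9 to 80.1 FPKM in SK-MEL-28 and 4.95 to 5.29 FPKM in A375, where PMEL, MLANA and TYR did not exceed 2.35 FPKM. Of the 12 dedifferentiated markers 10 were higher in A375, and the sum of all 12 was 97.3 and 135 FPKM in SK-MEL-28 against 711 and 758 FPKM in A375. Of 15 markers of keratinocytes, fibroblasts, leukocytes and endothelium, 2 were listed, LUM at 2.24 to 9.77 FPKM and KRT14 at 0.026 to 7.01 FPKM.

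AXL and EPHA2 were low in SK-MEL-28 and the most abundant receptors of the set in A375, and the sequence before their transcription starts is shown so that their values can be read beside it. The runs are the 250 bases before each start in RefSeq (GRCh38.p14), 5′ to 3′ on the gene's strand, and capitals mark GGAATG, the letters bound by TEAD factors, or CATGTG, an E-box of the kind bound by MITF, on either strand (CATTCC and CACATG are their reverse complements). The runs of AXL span chr19:41218973-41219222 and chr19:41226505-41226754 (+ strand), and that of EPHA2 spans chr1:16156070-16156319 (- strand).
AXL first start: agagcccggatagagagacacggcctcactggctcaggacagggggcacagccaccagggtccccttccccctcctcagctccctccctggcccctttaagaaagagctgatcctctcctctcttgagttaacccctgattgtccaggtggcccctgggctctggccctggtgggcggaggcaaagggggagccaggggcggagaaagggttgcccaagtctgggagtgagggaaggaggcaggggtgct
AXL second start: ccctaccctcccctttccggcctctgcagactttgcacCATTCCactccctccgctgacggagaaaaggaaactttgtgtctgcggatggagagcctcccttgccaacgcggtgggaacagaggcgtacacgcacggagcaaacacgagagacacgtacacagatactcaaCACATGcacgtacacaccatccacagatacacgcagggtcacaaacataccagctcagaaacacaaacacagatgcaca
EPHA2: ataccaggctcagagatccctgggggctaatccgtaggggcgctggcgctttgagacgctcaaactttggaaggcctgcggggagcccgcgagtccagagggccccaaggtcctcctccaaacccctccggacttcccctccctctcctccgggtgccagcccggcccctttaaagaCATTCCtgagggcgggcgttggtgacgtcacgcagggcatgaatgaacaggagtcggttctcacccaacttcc
GGAATG lay in the listed promoters of AXL, EGFR and EPHA2 and in 11.9% of 35116 promoters, and CATGTG in those of AXL and EGFR and in 9.42%. TGANTCA, the AP-1 motif, lay in those of EGFR and ERBB2 and in 6.57%, and CACGTG in none of the listed promoters of the set and in 6.34%. EGFR, like AXL, had a second listed start (chr7:55109589-55109838, not shown), and all matches of both genes lay before that start and none before the first. A gene was named when any of its listed promoters matched, while the shares are over single promoters. No promoter of ERBB3 or FGFR1 was searched here, so nothing is said of their motifs, and a match is a description of letters only.

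The first question was how much of each receptor the cells held. FPKM is per length and can be compared between genes, and with siNC the order in SK-MEL-28 was ERBB3, IGF1R, MET, ERBB2, EPHA2, AXL, FGFR1, EGFR and PDGFRB. In A375 it was EPHA2, AXL, MET, ERBB3, IGF1R, ERBB2, EGFR, FGFR1 and PDGFRB. EPHA2 and AXL thus moved from the fifth and sixth place to the first and second. With siLINC00622, ERBB3 and MET changed places in A375 and FGFR1 stood above EPHA2 and AXL in SK-MEL-28. Neighbours whose values overlapped over a line's libraries were EPHA2 with AXL and MET with ERBB3 in A375, and EPHA2, AXL and FGFR1 in SK-MEL-28. When counts were set against the longest annotated transcript instead, 21 of 36 ranks were the same, and ERBB2 stood above MET in SK-MEL-28. The lengths behind the deposited FPKM were 17201 bases for FGFR1, 11711 for ERBB3 and 10321 for ERBB2, against longest transcripts of 6216, 5919 and 4930 bases in GENCODE 29, so these receptors read lower by FPKM, and FGFR1 took the fifth place in SK-MEL-28 with siNC by longest transcript.

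**Figure D1:**
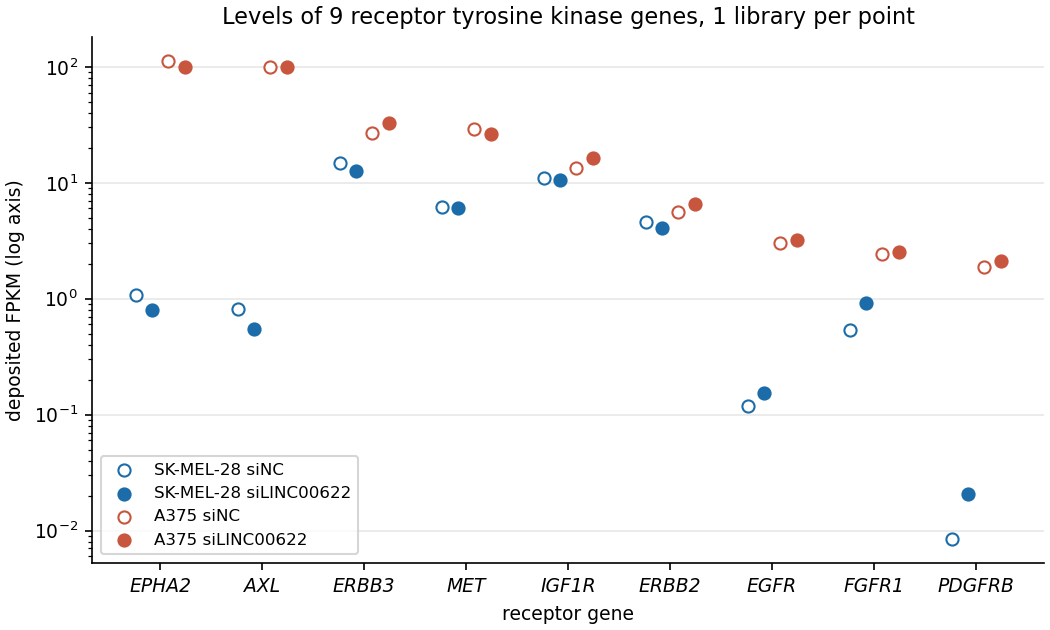
Deposited FPKM (log axis) of the 9 receptor genes, ordered by mean, with 1 point per library; blue is SK-MEL-28 and red is A375, open is siNC and filled is siLINC00622. AXL and EPHA2 lie at 0.553 to 1.07 FPKM in SK-MEL-28 and 98.9 to 113 FPKM in A375. ERBB2 and IGF1R lie close together in the lines, and ERBB3 lies higher in A375 by a fitted fold of 1.93.

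As a share of the summed FPKM of the 35 listed RTKs, the 9 genes made up 33.3% and 29.6% in SK-MEL-28 (siNC, siLINC00622) and 73.9% and 71.7% in A375. AXL and EPHA2 alone made up 1.60% and 1.12% in SK-MEL-28 against 53.3% and 49.4% in A375. The total of all 35 was 118 and 121 FPKM in SK-MEL-28 and 400 and 402 FPKM in A375. A375 thus held more RTK transcript by this sum, and its excess lay largely in those 2 genes.

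**Figure D2:**
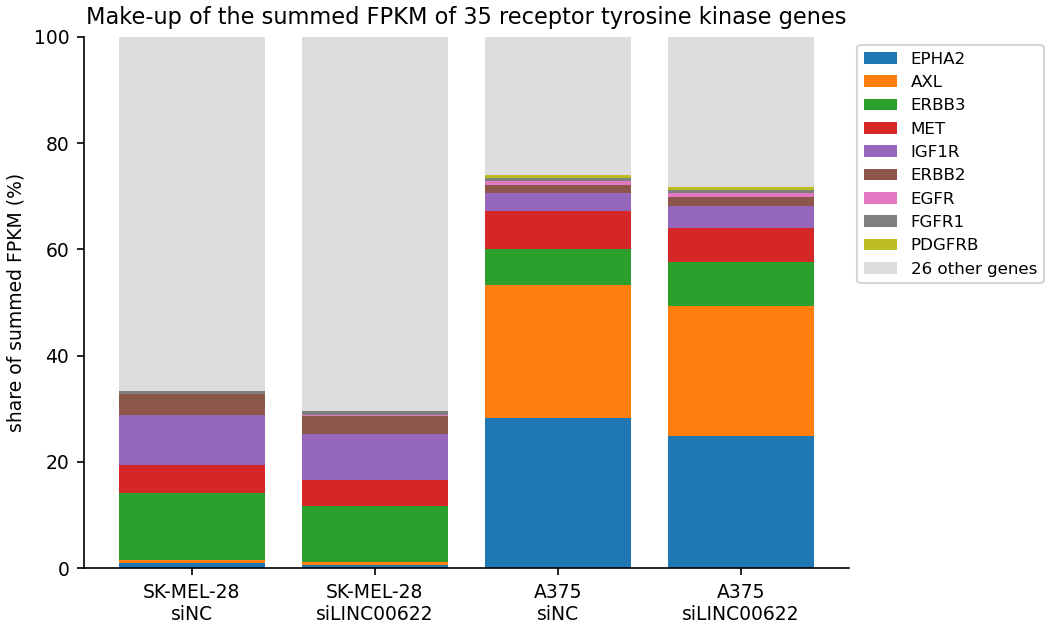
Share (%) of the summed FPKM of 35 listed RTK genes taken by each of the 9 genes (colours) and by the 26 others together (grey), 1 bar per library. The 9 genes reach 29.6% to 33.3% in SK-MEL-28 and 71.7% to 73.9% in A375, where EPHA2 and AXL take the 2 lowest and widest bands.

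The second question was which receptors differed between the lines. A joint edgeR quasi-likelihood fit over the 4 libraries, with treatment as a term and Benjamini-Hochberg adjustment over 16310 genes, called 8 of the 9 genes higher in A375 and none higher in SK-MEL-28. Of all genes it called 68.8%, with 35.0% higher in A375 and 33.8% higher in SK-MEL-28. Each line was 1 culture per treatment with 1 residual degree of freedom per gene. The spread behind the p-values is therefore the difference of the treatment ratio between the lines, shared in part across genes. It is not a spread between cultures or tumours, and for ERBB2, ERBB3 and IGF1R it holds the opposite changes given below.

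AXL (ENSG00000167601, chr19:41219203-41261766, + strand, GRCh38), the receptor for GAS6 and a member of the TAM subfamily with TYRO3 and MERTK, had the largest fitted ratio of the set. It had 139 and 97 counts in SK-MEL-28 (0.818 and 0.553 FPKM; siNC, siLINC00622) and 16064 and 18467 counts in A375 (100 and 98.9 FPKM), and the lines did not overlap. The log2 ratio of A375 over SK-MEL-28 was 7.03 ± 0.16 (SE; edgeR adjusted p = 4.3e-07), a fold of 130. MERTK showed the opposite order, with 8.41 and 15.0 FPKM in SK-MEL-28 and 0.133 and 0.186 FPKM in A375 (log2 ratio -6.35 ± 0.16, edgeR adjusted p = 4.9e-07). TYRO3 stayed between 5.71 and 8.29 FPKM in all 4 libraries (log2 ratio -0.48 ± 0.11, edgeR adjusted p = 0.0073). Of the summed TAM FPKM, AXL took 5.26% and 2.32% in SK-MEL-28 against 94.5% and 94.1% in A375, and MERTK 54.1% and 63.0% against 0.125% and 0.177%. The main TAM receptor transcript was therefore MERTK in one line and AXL in the other.

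EPHA2 (ENSG00000142627, chr1:16124337-16156087, - strand), an Eph receptor for ephrin-A ligands, had 147 and 114 counts in SK-MEL-28 (1.07 and 0.806 FPKM) and 14636 and 15053 counts in A375 (113 and 99.9 FPKM). The log2 ratio of A375 over SK-MEL-28 was 6.66 ± 0.12 (edgeR adjusted p = 3.2e-07), a fold of 101. EPHA4 was higher in SK-MEL-28, at 7.78 and 13.4 FPKM against 2.31 and 2.59 FPKM (log2 ratio -2.23 ± 0.16, edgeR adjusted p = 2.9e-05). PDGFRB, a receptor for platelet-derived growth factors best known from mesenchymal cells, had 2 and 5 counts in SK-MEL-28 and 416 and 547 counts in A375 (1.86 and 2.11 FPKM). Its log2 ratio was 6.63 with siNC (95% counting interval 5.74 to 10.7) and 6.08 with siLINC00622 (5.29 to 8.15), and 6.88 ± 0.30 in the joint fit (edgeR adjusted p = 3.9e-06). With so few counts in SK-MEL-28 the size of its ratio was poorly fixed, and the gene passed the count filter through the A375 libraries.

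Among the ERBB receptors, EGFR (ENSG00000146648, chr7:55019021-55211628, + strand), the receptor for EGF and TGFA, had 49 and 66 counts in SK-MEL-28 (0.118 and 0.154 FPKM) and 1193 and 1447 counts in A375 (3.05 and 3.18 FPKM). The log2 ratio of A375 over SK-MEL-28 was 4.35 ± 0.15 (edgeR adjusted p = 1.6e-06), a fold of 20.4. ERBB3 (ENSG00000065361, chr12:56076799-56103505, + strand), a weak kinase that binds neuregulin and signals by pairing, chiefly with ERBB2, had 5748 and 5102 counts in SK-MEL-28 (14.8 and 12.8 FPKM) and 9894 and 13955 counts in A375 (27.0 and 32.8 FPKM). It was therefore also higher in the less pigmented line, by 0.95 ± 0.13 on the log2 scale (edgeR adjusted p = 6.3e-04), a fold of 1.93. ERBB2, which has no known ligand of its own, had 1561 and 1428 counts in SK-MEL-28 and 1802 and 2470 counts in A375 (4.05 to 6.58 FPKM over all 4). The lines did not overlap, but the log2 ratio of 0.33 ± 0.13 did not pass (edgeR adjusted p = 0.053). It was 0.11 between the siNC libraries and 0.53 between the siLINC00622 libraries, and 0.19 (adjusted p = 0.37) in a fit without the A375 siLINC00622 library and the treatment term. Within the family ERBB3 held 75.2% to 77.0% of the FPKM in every library, and the EGFR share was 0.606% and 0.911% in SK-MEL-28 against 8.56% and 7.48% in A375 (5.63% and 4.90% per longest transcript). ERBB4 was not analysed here.

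The FPKM ratio of AXL to ERBB3 was 0.0552 and 0.0434 in SK-MEL-28 against 3.70 and 3.02 in A375, and by longest transcript 0.0302 and 0.0238 against 2.03 and 1.65. ERBB3 thus exceeded AXL in SK-MEL-28 and AXL exceeded ERBB3 in A375 by both measures. Since ERBB3 itself was higher in A375, the turn of the ratio came from AXL. AXL and EGFR followed the dedifferentiated markers across the lines, and ERBB3 did not follow the pigment genes.

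MET, the receptor for hepatocyte growth factor, had 1483 and 1485 counts in SK-MEL-28 (6.20 and 6.02 FPKM) and 6549 and 6906 in A375 (29.0 and 26.3 FPKM). Its log2 ratio was 2.01 ± 0.09 (edgeR adjusted p = 4.3e-06), a fold of 4.03, and its relative MST1R held at most 2.70% of their summed FPKM in any library. FGFR1 had 307 and 535 counts in SK-MEL-28 (0.539 and 0.910 FPKM) and 1294 and 1589 in A375 (2.41 and 2.54 FPKM), with a log2 ratio of 1.64 ± 0.17 (edgeR adjusted p = 1.7e-04). FGFR4 was the main FGF receptor transcript of SK-MEL-28, at 8.19 and 6.68 FPKM or 91.6% and 86.5% of the 3 listed genes, and held 36.7% and 41.3% in A375. Per longest transcript, a measure chosen after seeing the data, FGFR4 held 88.0% and 79.4% in SK-MEL-28, while in A375 FGFR1 led with 54.1% and 50.8%. IGF1R, the receptor for insulin-like growth factors, had the smallest fitted difference, with 5107 and 5004 counts in SK-MEL-28 (11.1 and 10.5 FPKM) and 5890 and 8350 in A375 (13.5 and 16.5 FPKM). Its log2 ratio of 0.30 ± 0.11 passed narrowly (edgeR adjusted p = 0.045) and did not pass once the treatment term was dropped (adjusted p = 0.082). Fits to 3 libraries, which hold no treatment term and leave a line with 1 library assumed to vary like the others, gave an adjusted p of 0.43 without the A375 siLINC00622 library, 0.10 without the SK-MEL-28 siNC library, 0.15 without the SK-MEL-28 siLINC00622 library and 0.040 without the A375 siNC library. INSR stood at 1.25 to 1.79 FPKM in both lines (edgeR adjusted p = 0.21).

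**Figure D3:**
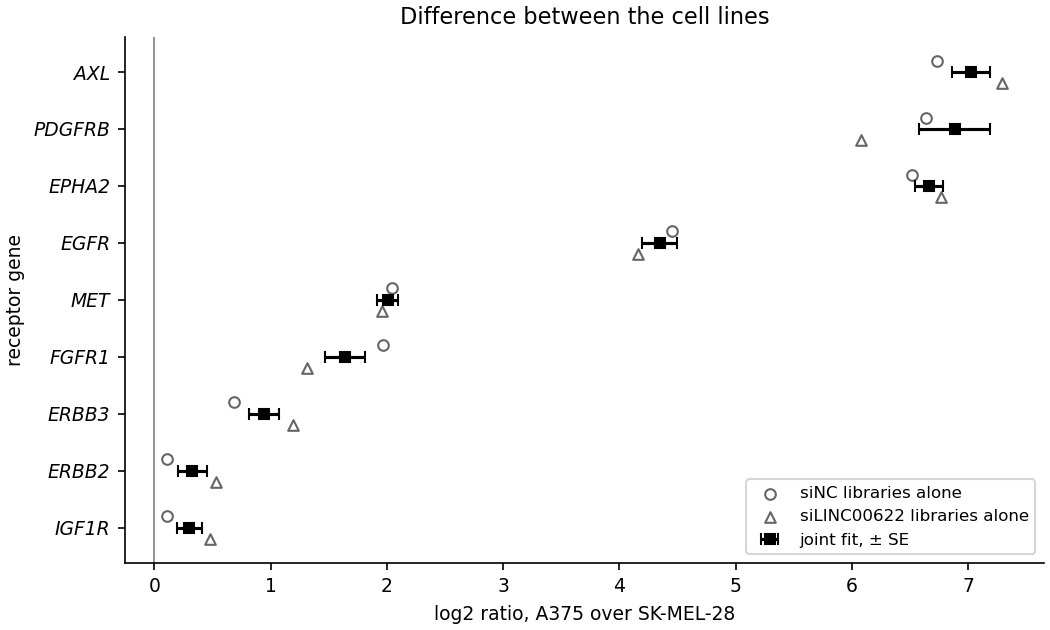
Log2 ratio of A375 over SK-MEL-28 for each of the 9 genes: squares with bars give the joint fit ± SE, circles the 2 siNC libraries alone and triangles the 2 siLINC00622 libraries alone. AXL, PDGFRB and EPHA2 lie at 6.08 to 7.29, EGFR near 4.35, and ERBB2 and IGF1R closest to 0.

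Other RTKs and the pathway around them were read from lists. Of 26 other listed RTKs, 14 were higher in A375, 7 higher in SK-MEL-28 and 5 not past the threshold, with a median log2 ratio of A375 over SK-MEL-28 of 1.20, beside 2.01 for the 9 genes and 0.03 for all genes. The 3 most abundant were EPHB4 (9.89 to 12.8 FPKM in all libraries), RYK (7.08 to 15.3 FPKM) and the collagen receptor DDR2, at 0.615 and 0.451 FPKM in SK-MEL-28 and 14.2 and 16.4 FPKM in A375 (log2 ratio 4.68 ± 0.18, edgeR adjusted p = 2.1e-06). Of 18 listed ligands 12 were higher in A375 and 5 in SK-MEL-28. For both lists the background over all genes was 35.0% higher in A375 and 33.8% higher in SK-MEL-28. TGFA, a ligand of EGFR, had 1.95 and 1.14 FPKM in SK-MEL-28 and 42.8 and 80.2 FPKM in A375 (log2 ratio 5.10 ± 0.38, edgeR adjusted p = 3.9e-05), so that EGFR and TGFA were both higher in A375. Of the other listed EGFR ligands, AREG and HBEGF were also higher in A375 (log2 ratios 4.58 and 0.60). EGF was lower in A375 (-1.71 ± 0.20, edgeR adjusted p = 3.3e-04). PROS1, a ligand of TYRO3 and MERTK, had 13.8 and 13.5 FPKM in SK-MEL-28 and 3.48 and 4.61 FPKM in A375 (log2 ratio -1.93 ± 0.13, edgeR adjusted p = 2.8e-05), the order of MERTK. GAS6, the ligand named above for AXL, was higher in A375 (log2 ratio 1.31 ± 0.19, edgeR adjusted p = 7.6e-04). EFNA1, a ligand of EPHA2, had 0.935 and 0.744 FPKM in SK-MEL-28 and 7.86 and 8.43 FPKM in A375 (log2 ratio 3.11 ± 0.19, edgeR adjusted p = 1.5e-05).

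**Figure D4:**
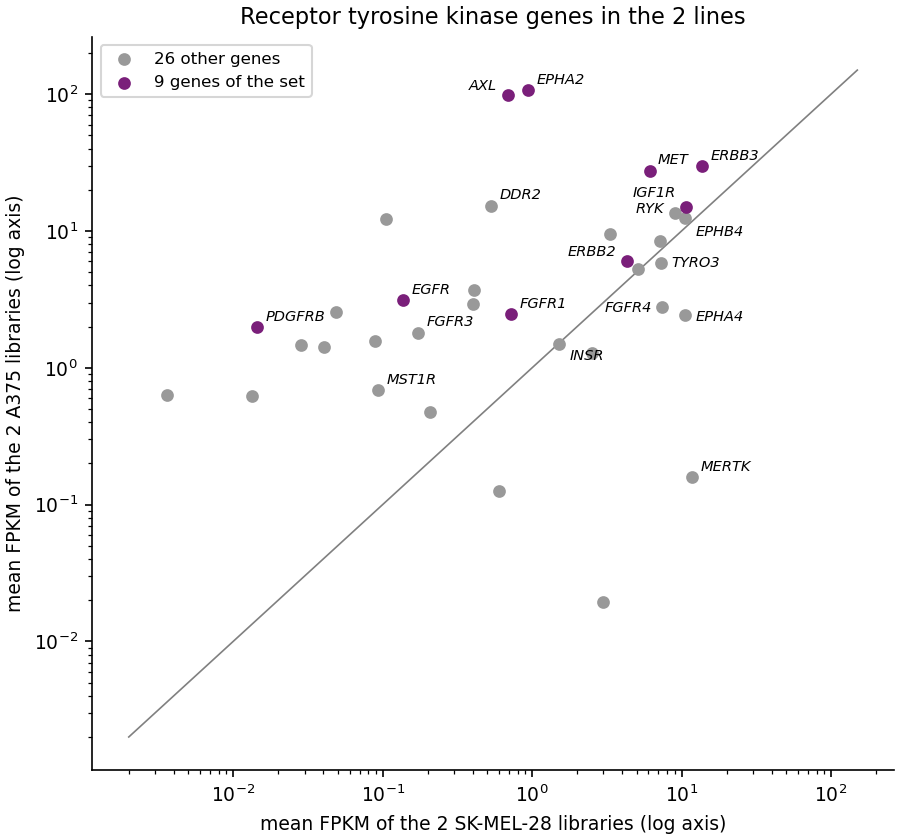
Mean FPKM of the 2 libraries of A375 (vertical, log axis) against that of SK-MEL-28 (horizontal, log axis) for 35 RTK genes; purple points are the 9 genes, grey points 26 others, and the line marks equal levels. AXL and EPHA2 stand at the top left of the line, and MERTK lies below it at the right.

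Downstream, 7 of 18 listed adaptors were higher in A375, 8 in SK-MEL-28 and 3 not past the threshold. Over all genes 35.0% were higher in A375 and 33.8% in SK-MEL-28, which is the background of this and the next lists. The most abundant were SHC1 (28.0 to 76.6 FPKM), PTPN11 (35.2 to 52.7 FPKM) and CRK (28.1 to 45.6 FPKM), each higher in A375. Of 22 negative regulators 11 were higher in A375, 7 in SK-MEL-28 and 4 not past it. SH2B3 and SPRY2, which restrain cytokine and RTK signalling, were higher in A375 (log2 ratios 0.40 ± 0.08 and 1.12 ± 0.12), and the phosphatase PTPN1 was higher in SK-MEL-28 (-0.51 ± 0.08). Of 16 genes of shedding and trafficking 4 were higher in A375, 7 in SK-MEL-28 and 5 not past it, and the sheddase inhibitor TIMP3 led by level at 205 to 339 FPKM.

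The third question was whether the receptors changed with siLINC00622. With 1 library per condition no test was possible within a line, so log2 ratios of siLINC00622 over siNC are given with 95% Clopper-Pearson intervals of the counts, which cover counting error only, and a gene was called when past 1.5-fold with at least 10 counts in 1 library of the line. In SK-MEL-28, 1 of 8 assessed genes of the set was called, beside 11.0% of 15442 genes, and in A375 0 of 9, beside 8.86% of 16021 genes (4.52% higher, 4.34% lower). By a fold above 1.5 together with p below 0.05 from edgeR's exact test at a fixed dispersion of 0.1, 0 members were called in either line, beside 0.608% and 0.304% of genes. The set's median log2 ratio was -0.11 for SK-MEL-28 and 0.09 for A375, beside 0.00 over all genes of either line.

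FGFR1 was the gene called. It went from 307 to 535 counts in SK-MEL-28 (0.539 to 0.910 FPKM), a log2 ratio of 0.77 (0.56 to 0.98), and stood 377th from the top of 15442 genes. On FPKM with a pseudocount of 1 the ratio was 0.31, short of 1.5-fold. In A375 FGFR1 had 1294 and 1589 counts and a log2 ratio of 0.09 (-0.02 to 0.19). LETM2, on the opposite strand and sharing 138 exon bases with it, had 73 and 52 counts in SK-MEL-28. The antisense gene AC087623.1, for which no count was used here, shares 156 exon bases. The library kit did not mark strand, and the part of such reads in the FGFR1 values was not tested.

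AXL and EPHA2 were lower with siLINC00622 in SK-MEL-28 without reaching 1.5-fold, AXL with a log2 ratio of -0.54 (-0.94 to -0.17) and EPHA2 with -0.39 (-0.76 to -0.04). In A375, where both were abundant, AXL had -0.01 (-0.04 to 0.02) and EPHA2 -0.17 (-0.20 to -0.14). EGFR had 0.38 (-0.16 to 0.96) in SK-MEL-28 and 0.07 (-0.04 to 0.18) in A375. MET had -0.03 (-0.13 to 0.08) and -0.13 (-0.18 to -0.08). PDGFRB had 0.18 (-0.001 to 0.37) in A375 and, with 2 and 5 counts, was not assessed in SK-MEL-28. Counting intervals lay apart from 0 for 6 of 8 genes in SK-MEL-28 and 5 of 9 in A375, beside 46.9% and 45.9% of all genes.

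ERBB2, ERBB3 and IGF1R were lower with siLINC00622 in SK-MEL-28 and higher in A375, with every counting interval apart from 0. ERBB3 had -0.20 (-0.26 to -0.15) and 0.29 (0.25 to 0.32). ERBB2 had -0.16 (-0.26 to -0.06) and 0.25 (0.16 to 0.33). IGF1R had -0.06 (-0.12 to -0.004) and 0.29 (0.25 to 0.34). Its SK-MEL-28 interval ended so near 0 that lying apart from it depended on the scaling. DESeq2 size factors in place of TMM shifted the median of all genes in that line by 0.011. The changes were all under 1.5-fold, and 6.40% of 14721 genes assessed in both lines, or 10.5% of 5219 genes with at least 1000 counts in each library, also had intervals apart from 0 in opposite directions. ERBB2 shared 571 exon bases with MIEN1 on the other strand, which had 703 and 772 counts in SK-MEL-28 against 535 and 798 in A375; the part of such reads in the ERBB2 values was not tested.

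**Figure D5:**
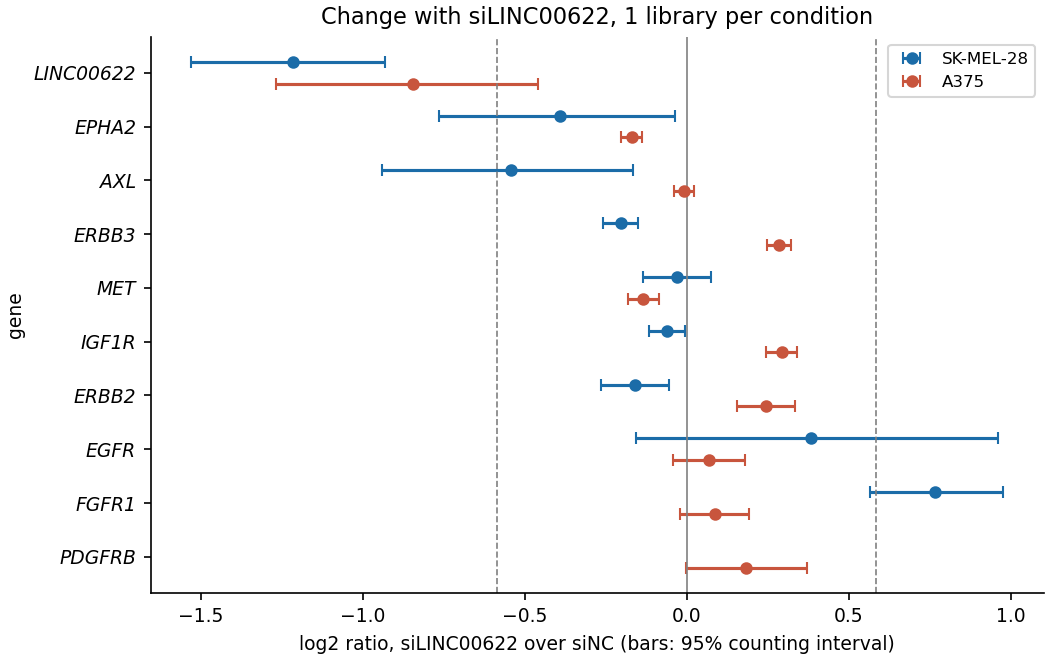
Log2 ratio of siLINC00622 over siNC for LINC00622 and the 9 genes in SK-MEL-28 (blue) and A375 (red); bars are 95% counting intervals, dashed lines mark 1.5-fold, and PDGFRB is not drawn for SK-MEL-28. FGFR1 in SK-MEL-28 lies past the right dashed line at 0.77, and the blue and red points of ERBB2, ERBB3 and IGF1R lie on opposite sides of 0.

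Tested over both lines together, as 2 pairs, 0 of 9 genes passed the edgeR quasi-likelihood test for the treatment, beside 0.282% of all genes. At an unadjusted p under 0.05 edgeR gave 1 gene, FGFR1 (log2 ratio 0.41 ± 0.17, unadjusted p = 0.046, adjusted p = 0.33), while 14.6% of all genes stood under it, and DESeq2 and limma gave 0 of 9 both adjusted and unadjusted. EPHA2, lower in both lines, had -0.23 ± 0.10 (edgeR adjusted p = 0.38). The other 7 had edgeR adjusted p-values of 0.63 to 0.89.

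Of the subfamily partners, in SK-MEL-28 MERTK went from 1273 to 2348 counts, a log2 ratio of 0.85 (0.75 to 0.95), and EPHA4 1945 and 3448 counts, a log2 ratio of 0.79 (0.71 to 0.88). MERTK was thus higher and AXL lower in the same line. TYRO3 had 0.41 (0.33 to 0.49) there. INSR was lower in both lines, at -0.50 (-0.68 to -0.33) and -0.40 (-0.58 to -0.23), without reaching 1.5-fold. Of 23 other RTKs assessed in SK-MEL-28, 3 were called higher (MERTK, EPHA4 and EPHA5) and 6 lower, beside 4.56% and 6.49% of all genes, and of 25 in A375 2 were called higher (EPHA3 and ROR1) and none lower, beside 4.52% and 4.34%. TGFA had 318 and 191 counts in SK-MEL-28, a log2 ratio of -0.76 (-1.03 to -0.50), and 6583 and 14357 in A375, a log2 ratio of 0.92 (0.87 to 0.96). Of the ligands 4 of 16 were called lower in SK-MEL-28, and of 17 in A375 1 was called higher and 1 lower. Those other than TGFA, named after their values were seen, were FGF2, NRG1 and EFNA5 (lower in SK-MEL-28) and AREG (lower in A375). No adaptor or negative regulator was called in either line, and of the shedding genes ADAM9 was called, lower in SK-MEL-28 with a log2 ratio of -0.75 (-0.80 to -0.69). The dedifferentiated markers had a median log2 ratio of -0.49 in SK-MEL-28, where 5 of 12 were called lower, and 0.00 in A375, where none was. The melanocytic markers had medians of 0.19 and 0.11, with 2 of 12 called higher in SK-MEL-28 (GPR143 and TRPM1) and 2 called lower in A375 (TYRP1 and TRPM1). The part of either list in the AXL and EPHA2 values was not tested.

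The sequences of 2 siRNAs against LINC00622 were listed by the study, without naming the one behind these libraries. They are shown because an siRNA can also act on transcripts that match its seed. The strand printed is the sense strand, and capitals mark the 7 bases that a transcript must hold to pair with positions 2 to 8 of the guide.
siLINC00622_1: ccctaaagaaaGTGAGAAa
siLINC00622_2: ggcaacctctaATTGACTt
In the longest GENCODE 29 3′ UTR, 3 of the 9 genes held 1 site for siLINC00622_1, beside 14.6% of 12370 genes, and 0 held one for siLINC00622_2, beside 11.6%. The 3 sites lie in 3′ UTRs on the + strand (GRCh38), at chr7:55207821-55207827 (EGFR), chr12:56103348-56103354 (ERBB3) and chr15:98962136-98962142 (IGF1R), with capitals marking the site.
EGFR: catgcttaGTGAGAAgactacac
ERBB3: atccagcaGTGAGAAgcttccag
IGF1R: atcgatggGTGAGAAggctagga
Beside these sites, the log2 ratios given above were 0.38, -0.20 and -0.06 for SK-MEL-28 against 0.07, 0.29 and 0.29 for A375. Whether these values hold an effect through the seed was not tested.

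The genes whose pattern over the 4 libraries lay nearest to the 3 state markers were sought among 14296 genes by the distance between centred log2 CPM (counts per library total). For AXL these were PAWR (distance 0.15), KRT81 (0.16) and INAVA (0.21), and the nearest receptor of the set was EPHA2 (0.40). For EGFR they were STAP2 (0.13), ALDH5A1 (0.14) and CTSW (0.15), with PDGFRB nearest in the set at 2.08. For ERBB3 they were DPH6 (0.04), NRG2 (0.05) and ENDOV (0.05), with ERBB2 nearest in the set at 0.62. Over 4 libraries from 2 lines these distances reflect mainly the difference between the lines for AXL and EGFR.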

How the data were processed

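Poly(A) RNA of 4 transfected cultures, 1 per line and siRNA, was sequenced by the authors as 150-base read pairs from a kit that does not mark strand. The authors deposited 1 table with raw counts per gene, and CPM, FPKM and TPM, which they computed from those counts, the library total and a gene length. TPM was not used further. The submitters' processing notes name HISAT2, HISAT, TopHat2, Bowtie2 and hg19 without their roles; the counter and annotation are not given in the sources used here. Columns of the authors' own comparisons were not used.

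Counts were scaled by TMM in edgeR 4.0.16 (R 4.3.3). Ratios within a line used a prior count of 2 and exact binomial intervals at 95%; PCR reads carry no molecular identifiers, so these cover counting error only. The joint quasi-likelihood fit held line and treatment, for genes with at least 10 counts in at least 2 of the 4 libraries, at an adjusted p threshold of 0.05. In data simulated from the 4 libraries with the same dispersion for all genes, 200 of 200 planted 4-fold line changes were recovered among 16336 genes. Of genes set to equal levels, 4% had an edgeR p under 0.05 for the line and 4.4% for the treatment. The simulation held no treatment effect that differed between the lines. It therefore checks the code and not the error rate on these libraries, where 14.6% of all genes had an unadjusted edgeR p under 0.05 for the treatment. DESeq2 1.42.0 and limma 3.58.1 (on log2 FPKM with a pseudocount of 1) were alternatives.

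Positions, 3′ UTRs and overlaps came from GENCODE 29 (GRCh38) and promoters from RefSeq; no coordinate came from the deposited hg19 processing. Protein sequences were not used here. Named genes were the members, their subfamily partners, in each list the genes past 1.5-fold the same way in both lines with at least 50 counts in each (there were none) and the 3 highest by mean FPKM, and the 3 nearest patterns of AXL, EGFR and ERBB3. The members and lists were chosen with earlier results of these data known.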

Additional observations from a re-analysis of the deposited data

Results flagged for a closer look

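In 3 receptors the 2 lines moved in opposite directions with siLINC00622, and the difference between the lines was not tested, since each line had 1 library per condition. For ERBB2 the log2 ratio of siLINC00622 over siNC was -0.16 (SK-MEL-28) and 0.25 (A375), a difference of 0.40 (95% counting interval 0.27 to 0.54). ERBB3 had -0.20 and 0.29, a difference of 0.49 (0.42 to 0.56). IGF1R had -0.061 and 0.29, a difference of 0.35 (0.28 to 0.43). These were 3 of the 4 genes of the set with at least 1000 counts in each library, and 10.5% of all genes at that depth did likewise. The 3 were picked for intervals apart from 0 in opposite directions, so difference intervals apart from 0 follow from that choice. For IGF1R in SK-MEL-28 the picking depended on the scaling. Its interval ended nearer to 0 than the 0.011 by which DESeq2 size factors shifted the median of all genes there. FGFR1 (difference of A375 minus SK-MEL-28 -0.68, -0.91 to -0.45) and AXL (0.53, 0.16 to 0.91) also had such intervals, without opposite directions.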

How the results depend on the processing

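The receptors higher in A375 were 8 with TMM and 7 to 9 under every alternative run, including leaving out each library (7 to 8). The IGF1R line call was lost with DESeq2 size factors (adjusted p = 0.057), a filter at 50 counts (0.051), no treatment term (0.082) and DESeq2 (0.082), and ERBB2 passed with library totals (0.014), no filter (0.0499) and limma on FPKM (0.019). Library totals shifted the median of all genes by -0.17 in the log2 ratio of SK-MEL-28 over A375. In SK-MEL-28 the 1 receptor called higher became 0 on FPKM with a pseudocount of 1, at 2-fold and by the exact test at a fixed dispersion of 0.1 (a criterion of fold above 1.5 and p below 0.05, met by 0.608% of genes), and 2 without a filter, where PDGFRB entered. In the paired treatment test, genes higher and lower with siLINC00622 were 19 and 27, but 1 and 0 with DESeq2 size factors, with library totals and with limma, 57 and 64 without a filter, 0 and 0 at 50 counts and without the line term, and 144 and 159 with DESeq2; the cause was not tested. AXL turned from -0.16 to 0.0075 without the line term. By longest transcript 21 of 36 ranks equalled those by FPKM. With a 6-base match 5 of 9 members held a site of siLINC00622_1, beside 47.1% of 12370 genes, and 5 one of siLINC00622_2, beside 35.0%. The treatment test is paired by line, and the labels carry no replicate numbers for any other pairing. Leaving out 1 library leaves it no residual degree of freedom, so fits to 3 libraries were made for the line alone and without the treatment term. A depth of 2 and 5 counts limits PDGFRB in SK-MEL-28.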
